A study of Mus musculus with 12 samples.

Results

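The secreted protease genes Mmp9, Adamts14, Mcpt1 and Mcpt2 were followed through every library of a mouse CD8 T cell culture experiment. They were taken from the count tables by gene symbol, 4 genes of 46078 in all, and were chosen by their counts, which differ between these cultures, so their values are given as a description with no test. CD8 T cells, the killer cells among lymphocytes, came from the spleen of C57BL/6 mice and were cultured with the interleukins IL-2 and IL-15, which were in every culture. All-trans retinoic acid (RA), a hormone-like product of vitamin A, and transforming growth factor beta (TGFβ) were each added alone or in combination, or were left out, and RNA was taken at day 7. The series title states the aim of making tissue-resident memory CD8 T cells (Trm) in vitro. The groups, of 3 libraries each, are named IL-2 + IL-15 (neither agent added), RA (with retinoic acid), TGFβ, and TGFβ + RA (both). The labels call the libraries biological replicates without saying whether they came from separate animals, so the SE, SD and p-values measure only the spread between these samples. The sources used here do not give the age and sex of the mice, the doses or the time of each addition.

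Proteases that leave the cell act on the matrix and on surface proteins around it. Mmp9, or gelatinase B, is a zinc-dependent matrix metalloproteinase that is secreted as a proenzyme, cleaves denatured collagens and basement membrane collagen, and is used by leukocytes in migration. Adamts14 belongs to the group of ADAMTS proteases that remove the amino-terminal propeptides of fibrillar procollagens. Mcpt1 and Mcpt2 are mouse mast cell proteases, chymase-family serine proteases best known from the mucosal mast cells of the gut, in which they are stored on proteoglycans in granules and in which TGFβ is known to raise Mcpt1.

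Library totals ran from 18300206 to 33477037 counts, and all 4 genes were among the 14009 genes that passed the filter on low counts. The summed level of 8 CD8 T cell markers (Cd3d, Cd3e, Cd3g, Cd8a, Cd8b1, Trac, Trbc1 and Trbc2) was 4998 to 8798 CPM (counts relative to the TMM-scaled library total) over the 12 libraries. Neutrophil transcripts stood out in 1 library: 13 neutrophil markers summed to 651 counts in TGFβ + RA replicate 3 and to at most 28 in each of the other libraries. In bulk RNA, a change in the number of cells of a type and a change in RNA per cell cannot be told apart.

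The 2 mast cell proteases are close copies, so the bases that separate them decide whether reads can be assigned. Mcpt1 (ENSMUSG00000022227) lies on chromosome 14 from 56017971 to 56020384 and Mcpt2 (ENSMUSG00000022226) from 56042041 to 56044642, both on the plus strand of GRCm38 and 21.7 kb apart. Of 731 aligned coding positions 597 were identical (81.7%), and the longest identical run was 49 bases. None, 0 of 965, of the 50-base windows of the Mcpt1 transcript and 0 of 1012 of those of Mcpt2 occurred exactly in a transcript of another gene of GENCODE M21, so only reads shorter than that, or with mismatches, could fit both. The sources used here do not give the read length or say how reads that match several places were counted. The coding stretch of 90 bases with the most differences lies in exon 4 of 5 of each gene, at chr14:56019514-56019603 in Mcpt1 and chr14:56043848-56043937 in Mcpt2. It is shown 5′ to 3′ from the GENCODE transcripts, and the capitals mark the 32 positions at which the genes differ.
Mcpt1: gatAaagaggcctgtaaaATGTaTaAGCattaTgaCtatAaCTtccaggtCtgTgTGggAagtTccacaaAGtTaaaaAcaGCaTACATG
Mcpt2: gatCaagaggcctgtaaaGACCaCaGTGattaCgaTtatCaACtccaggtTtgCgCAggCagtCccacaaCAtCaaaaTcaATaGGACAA

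Mmp9 had its highest level in the RA cultures. In IL-2 + IL-15 it had 2.67, 1.18 and 1.41 CPM in replicates 1, 2 and 3, against 227, 161 and 87.9 CPM in RA. Every RA library lay above every library of the other groups, and RA replicate 3 was the lowest of its group. With TGFβ the values were 0.383, 0.247 and 0.200 CPM, from only 10, 6 and 5 counts, and all lay below the IL-2 + IL-15 libraries. With both agents they were 0.741, 1.98 and 0.662 CPM, above the TGFβ libraries and overlapping those of IL-2 + IL-15. The mean thus went from 1.75 ± 0.800 CPM (SD, n = 3) to 159 ± 69.5 with RA, 0.277 ± 0.0950 with TGFβ and 1.13 ± 0.737 with both. As fitted by edgeR, the log2 fold change was 6.50 ± 0.38 (SE) for RA and -2.63 ± 0.90 for TGFβ, each against IL-2 + IL-15. Set against RA alone, TGFβ + RA was lower by -7.03 ± 0.41 on the log2 scale, a mean 141-fold lower CPM, and by -7.82 without TGFβ + RA replicate 2. Set against TGFβ alone it was higher by 2.10 ± 0.99, and this value fell to 1.31 without the same library. The gene (ENSMUSG00000017737) lies on chromosome 2 from 164940780 to 164955850, plus strand, and no annotated gene overlaps its exons.

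Adamts14 shared the direction of Mmp9 in each addition and differed in size. Its 3 libraries in IL-2 + IL-15 had 40.4, 26.4 and 20.1 CPM, and those in RA had 119, 117 and 52.5 CPM. The groups did not overlap, and RA replicate 3 was the lowest of the RA libraries here too. With TGFβ it was close to undetected at 0.306, 0.452 and 0.561 CPM, from 8, 11 and 14 counts. With TGFβ + RA it had 5.56, 2.76 and 3.02 CPM, so every library with both agents lay above those with TGFβ alone and below those without TGFβ. The means were 29.0 ± 10.4, 95.9 ± 37.6, 0.440 ± 0.128 and 3.78 ± 1.55 CPM (SD, n = 3) with neither agent, with RA, with TGFβ and with both. The fitted log2 fold change was 1.73 ± 0.29 (SE) for RA and -6.03 ± 0.53 for TGFβ, the latter the 2nd lowest of all 14009 genes tested. RA in the presence of TGFβ gave 3.03 ± 0.72, and TGFβ in the presence of RA gave -4.74 ± 0.37. The gene (ENSMUSG00000059901) lies on chromosome 10 from 61197112 to 61273438 on the minus strand.

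**Figure D1:**
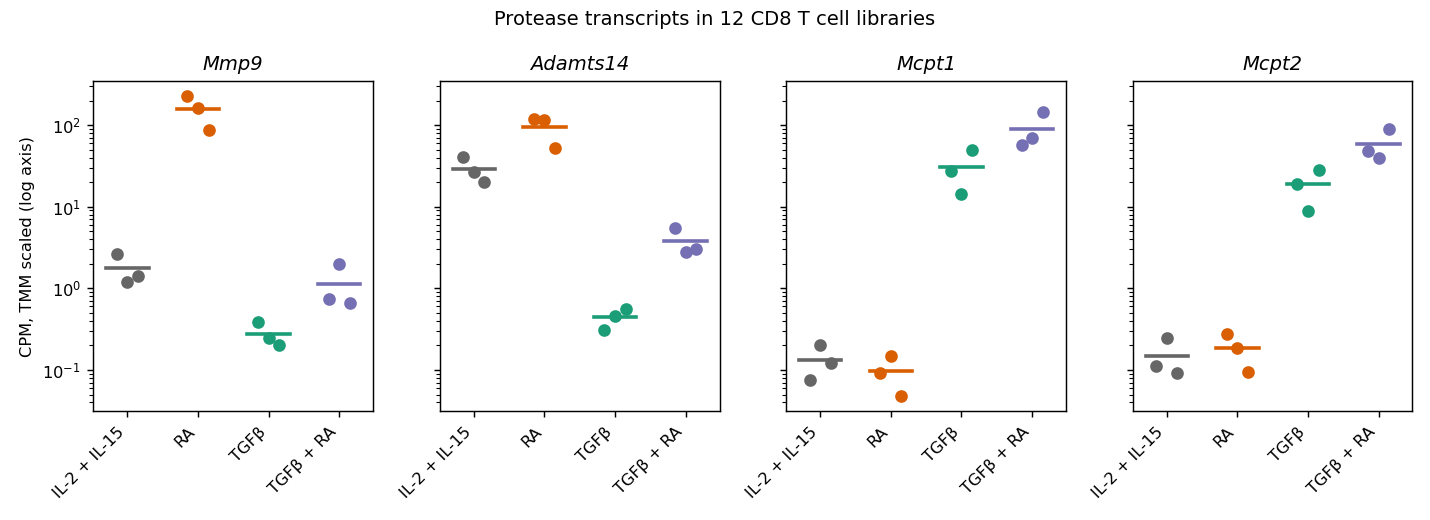
Level of each gene in the 12 libraries, in CPM on a log axis, with points for libraries and lines for group means. Mmp9 and Adamts14 are highest in RA (means of 159 and 95.9 CPM), and Mcpt1 and Mcpt2 are below 0.3 CPM in every library without TGFβ.

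The mast cell proteases moved in the opposite direction with TGFβ. Mcpt1 had 2, 5 and 4 counts in the IL-2 + IL-15 libraries and 2, 4 and 1 counts in the RA libraries, which is 0.0475 to 0.203 CPM. With TGFβ it had 720, 352 and 1231 counts, or 27.6, 14.5 and 49.3 CPM. With TGFβ + RA it had 1088, 2204 and 3955 counts, or 57.6, 69.1 and 145 CPM. Every library with TGFβ lay above every library without it, every library with both agents lay above those with TGFβ alone, and the groups without TGFβ overlapped each other. The mean rose from 0.134 ± 0.0648 CPM to 30.4 ± 17.6 with TGFβ and 90.7 ± 47.8 with both (SD, n = 3), and was 0.0963 ± 0.0516 with RA.

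Mcpt2 followed the same order at a lower level. It had 3, 6 and 3 counts in IL-2 + IL-15 and 6, 5 and 2 in RA. With TGFβ it had 18.8, 8.96 and 28.3 CPM, and with TGFβ + RA 48.1, 39.2 and 89.2 CPM. Both TGFβ groups were again clear of the groups without it and of each other. Mean CPM was 0.150 ± 0.0824, 0.185 ± 0.0890, 18.7 ± 9.69 and 58.8 ± 26.7 with neither agent, with RA, with TGFβ and with both (SD, n = 3).

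Fitted log2 fold changes for TGFβ against IL-2 + IL-15 were 7.81 ± 0.79 for Mcpt1 and 6.98 ± 0.68 for Mcpt2. For TGFβ + RA against RA they were 9.75 ± 0.78 and 8.26 ± 0.63, and that of Mcpt1 was the 2nd highest of all genes tested. Adding RA to TGFβ gave 1.58 ± 0.36 for Mcpt1 and 1.65 ± 0.33 for Mcpt2, a mean 2.98-fold and 3.14-fold higher CPM. Without TGFβ + RA replicate 3, the library that also held neutrophil transcripts, these values were 1.06 and 1.22, and without TGFβ replicate 3 they were 2.11 and 2.08. RA without TGFβ gave -0.37 ± 2.59 and 0.37 ± 1.73, values that rest on 13 or fewer counts a gene and group. The comparisons share libraries, so these fold changes are not independent of one another.

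**Figure D2:**
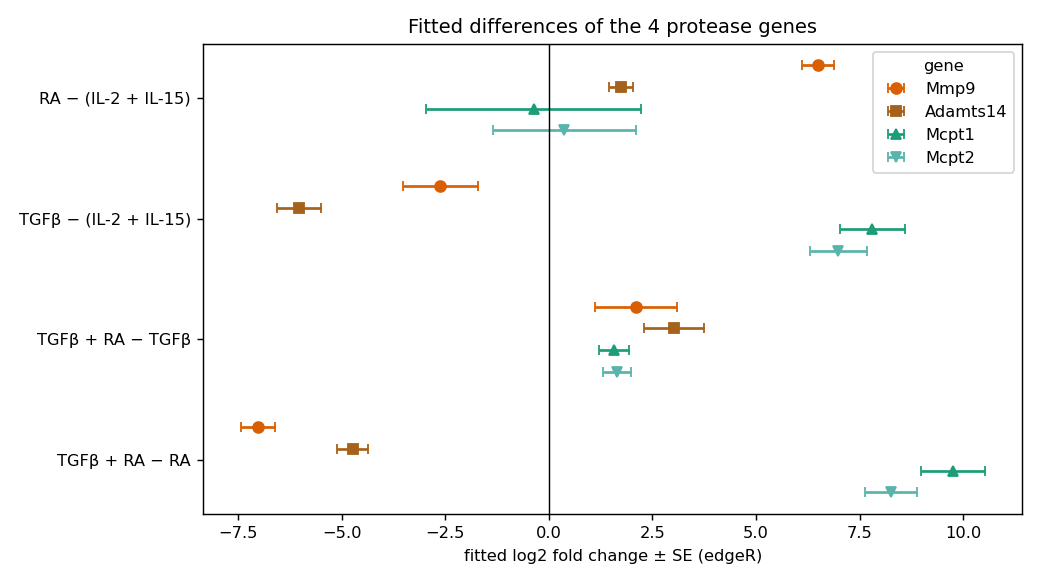
Fitted log2 fold change ± SE (edgeR, 12 libraries) of the 4 genes in 4 comparisons, with the comparison on the vertical axis. Mmp9 and Adamts14 lie to the right for RA and to the left for TGFβ, and Mcpt1 and Mcpt2 lie near 0 for RA with wide bars and at 7.81 and 6.98 for TGFβ.

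In the 6 libraries with TGFβ the 2 mast cell proteases were in a similar proportion. Mcpt1 made up 59.4% (exact 95% interval 56.6 to 62.2), 61.8% (57.6 to 65.8) and 63.5% (61.3 to 65.6) of the counts of both genes in TGFβ replicates 1, 2 and 3. In TGFβ + RA it made up 54.5% (52.3 to 56.7), 63.8% (62.2 to 65.5) and 62.0% (60.8 to 63.2). TGFβ + RA replicate 1 was the lowest, with an interval below those of its group. The group means were 61.5% ± 2.05 and 60.1% ± 4.95 (SD, n = 3), so the groups overlapped. Without TGFβ the share ran from 25.0% to 57.1%, from 3 to 11 counts of both genes a library. These intervals cover counting error only.

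Levels of different genes were compared per length, as CPM divided by the exon length in kilobases (RPKM). In IL-2 + IL-15 Adamts14 was highest at 5.58 ± 2.00 RPKM, above Mmp9 at 0.495 ± 0.226, with Mcpt2 and Mcpt1 lowest at 0.141 ± 0.0777 and 0.132 ± 0.0639 and overlapping. In RA Mmp9 led at 44.8 ± 19.6 RPKM, above Adamts14 at 18.5 ± 7.23 with no overlap of their libraries. In TGFβ Mcpt1 led at 30.0 ± 17.3 RPKM, then Mcpt2 at 17.6 ± 9.14, while Adamts14 and Mmp9 overlapped at 0.0846 ± 0.0245 and 0.0782 ± 0.0268. In TGFβ + RA the order was Mcpt1 (89.5 ± 47.1 RPKM), Mcpt2 (55.4 ± 25.1), Adamts14 (0.727 ± 0.297) and Mmp9 (0.318 ± 0.208), all SD with n = 3, with overlap between Mcpt1 and Mcpt2 and between Adamts14 and Mmp9. The leading secreted protease of the 4, by group mean, changed from a collagen propeptidase without additions to a gelatinase with RA and a mast cell protease with TGFβ.

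Promoter sequence was available for 2 of the 4 genes, Mcpt1 and Adamts14, which moved in opposite directions with TGFβ. The 250 bases before the RefSeq transcription start are shown 5′ to 3′ on each gene's strand (GRCm38.p6), at chr14:56017714-56017963, plus strand, for Mcpt1 and chr10:61273420-61273669, minus strand, for Adamts14. In Mcpt1 the capitals mark the SMAD box CAGAC and, nearer to the start, the GATA motif. In Adamts14 they mark the GC boxes, read on the other strand.
Mcpt1: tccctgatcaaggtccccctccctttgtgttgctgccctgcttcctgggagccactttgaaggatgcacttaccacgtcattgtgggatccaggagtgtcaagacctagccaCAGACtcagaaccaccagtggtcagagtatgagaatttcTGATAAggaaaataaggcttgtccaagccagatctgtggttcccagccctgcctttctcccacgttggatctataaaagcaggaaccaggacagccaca
Adamts14: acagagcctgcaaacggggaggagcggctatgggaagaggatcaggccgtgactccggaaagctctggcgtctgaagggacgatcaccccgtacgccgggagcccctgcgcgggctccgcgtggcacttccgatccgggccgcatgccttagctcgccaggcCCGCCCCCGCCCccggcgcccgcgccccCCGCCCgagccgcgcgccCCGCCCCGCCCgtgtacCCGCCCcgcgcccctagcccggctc
The windows differ in base composition, with 51.6% G and C in Mcpt1 and 76.4% in Adamts14 against a median of 52.4% over all promoters. Motifs were searched on both strands, and their shares are of 32851 promoter windows of the same length. Mcpt1 held 1 GATA motif (AGATAA or TGATAA, or either with G as its last base), which begins 99 bases before the start and occurs in 26.5% of windows, and Adamts14 held 0. The SMAD box CAGAC was found 1 time in each, in lower case in Adamts14, and in 42.2% of windows. Adamts14 held 6 GC boxes (GGGCGG), some of them adjoining, against 0 in Mcpt1 and a presence in 32.7% of windows. The retinoic acid receptor motif AGGTCA (14% of windows) and the AP-1 motif TGANTCA (6.75%) were in neither window. A match is only a match of letters.

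Of 12 mast cell markers, 4 had the group order of Mcpt1 and Mcpt2, with the highest mean CPM with both agents, then with TGFβ, then without it (Fcer1a, Ms4a2, Cma1 and Gata2). The other 8 did not (Kit, Cpa3, Hdc, Tpsb2, Tpsab1, Mcpt4, Mrgprb2 and Il1rl1). Among the 9 markers that passed the filter on low counts, Fcer1a, Ms4a2, Gata2 and Tpsb2 had under 10 counts in every library without TGFβ and passed through the groups in which they were high, so no test is given for them and no count of calls for the list. Fcer1a, the ligand-binding chain of the high-affinity IgE receptor, had 0, 0 and 5 counts in IL-2 + IL-15 and 4, 0 and 2 in RA. It had 40, 15 and 71 counts in TGFβ and 67, 88 and 248 in TGFβ + RA, so among the libraries with TGFβ it was lowest in TGFβ replicate 2 and highest in TGFβ + RA replicate 3, as Mcpt1 was. Ms4a2, the β chain of the same receptor, had 0 counts in all 6 libraries without TGFβ, then 12, 3 and 18 in TGFβ and 32, 34 and 56 in TGFβ + RA. Gata2, a transcription factor of mast cells and basophils, had 24, 6 and 45 counts in TGFβ and 45, 45 and 109 in TGFβ + RA, against at most 6 in any library without TGFβ.

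Over the 6 libraries with TGFβ, the summed counts of Mcpt1 and Mcpt2 ran from 570 to 6379, an 11.2-fold span, while their ratio to the Fcer1a count stayed between 25.7 and 39.2. The ratio to Gata2 ran from 43.1 to 95, that to Ms4a2 from 62.4 to 190.0, that to Cma1 from 20.4 to 89.8, that to Cpa3 from 7.80 to 20.5 and that to Kit from 0.385 to 6.58. In IL-2 + IL-15 replicate 3, which had 5 counts of Fcer1a, 6 of Gata2 and 21 of the mast cell chymase Cma1, Mcpt1 and Mcpt2 summed to only 7, a ratio to Fcer1a of 1.40. Kit, the stem cell factor receptor, did not follow this order: it had 208, 189 and 241 counts with neither agent, 425, 546 and 201 with RA, 1433, 1482 and 1665 with TGFβ and 588, 952 and 970 with both. Cpa3, a mast cell carboxypeptidase, was highest in RA, at 941, 747 and 631 counts, where Mcpt1 and Mcpt2 were near 0. The whole list summed to 16.8 to 20.7 CPM with neither agent, 40.8 to 63.7 with RA, 67.2 to 88.3 with TGFβ and 52.9 to 84.6 with both. Hdc, the enzyme that makes histamine, had 5 to 15 counts a library with TGFβ against 8 to 22 with neither agent and was not called by edgeR (-0.19 ± 0.48, adjusted p = 0.777, n = 3), nor was the interleukin-33 receptor Il1rl1 (0.35 ± 0.29, adjusted p = 0.357). A call means that edgeR's quasi-likelihood test over all 14009 genes gave an adjusted p (Benjamini-Hochberg) under 0.05, and with TGFβ 20.7% of genes were called higher and 22.4% lower. Tpsb2, a mast cell tryptase, had 33, 35 and 27 counts in TGFβ but 0, 0 and 53 in TGFβ + RA. Mrgprb2, a receptor of connective tissue mast cells, was at 0 in every library, and Tpsab1 had 3 counts in all 12. Basophils share Fcer1a, Gata2 and Hdc with mast cells. Of other basophil markers, Prss34 had 0, 0 and 6 counts in TGFβ and 0, 27 and 86 in TGFβ + RA. Cd200r3 had 6, 3 and 14 counts in TGFβ and 3, 11 and 11 in TGFβ + RA. Il3ra went the other way, from 37.2 ± 1.65 CPM with neither agent to 27.9 ± 4.62 with both (SD, n = 3). The part of mast cells or basophils in the levels of Mcpt1 and Mcpt2 was not tested.

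**Figure D3:**
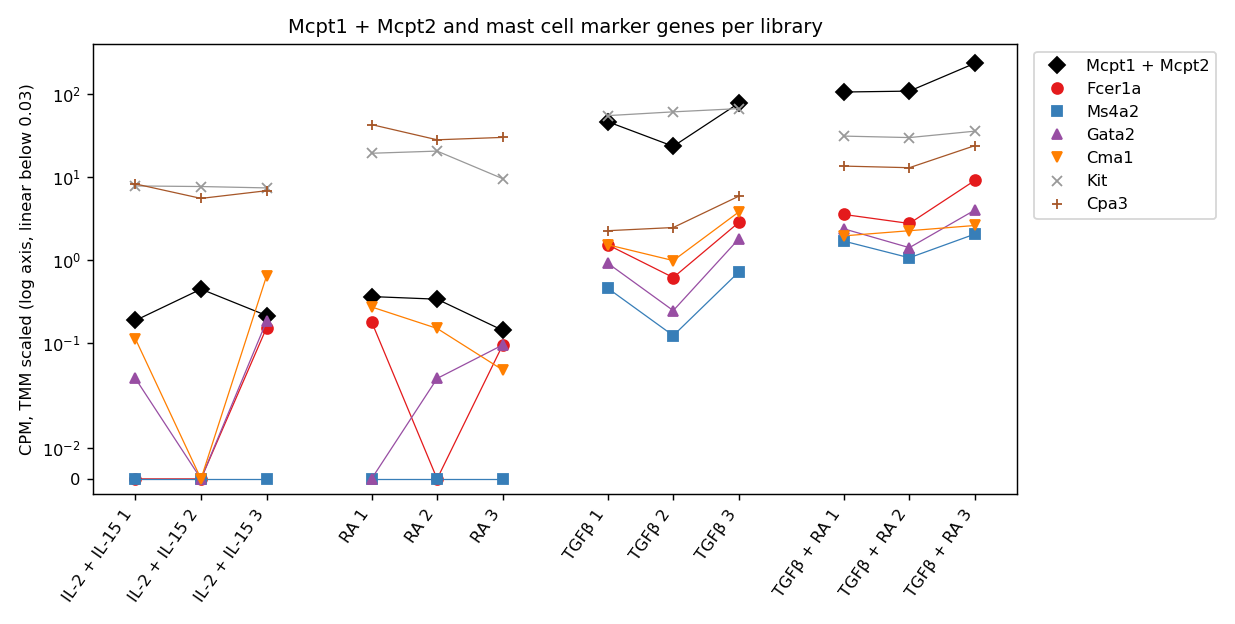
Summed Mcpt1 and Mcpt2 and 6 mast cell marker genes in each library, in CPM on a log axis that is linear below 0.03; lines join libraries of a group and mark no order. Fcer1a, Ms4a2, Gata2 and Cma1 dip in TGFβ replicate 2 with Mcpt1 and Mcpt2, while Kit and Cpa3 do not.

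Markers of other cells were set beside Mmp9 and Adamts14 in the same way. Neutrophils, a common source of Mmp9, were represented by 13 markers that summed to 3 to 7 counts in the RA libraries, in which Mmp9 had 4985, 4288 and 1847 counts. In TGFβ + RA replicate 3, with 651 neutrophil counts, Mmp9 had 18 counts, and in replicate 2, with 3 neutrophil counts, it had 63. The macrophage genes Csf1r and Cd14 had at most 6 and 4 counts in any library, and Mertk was at 0 in all. The 8 macrophage and monocyte markers summed to 249 to 342 CPM with neither agent, 235 to 402 with RA, 18.9 to 21.4 with TGFβ and 9.37 to 20.2 with both. Ccr2, which T cells also express, made up most of it without TGFβ, at means of 279 ± 46.9 CPM with neither agent and 289 ± 89.0 with RA (SD, n = 3). With TGFβ Ccr2 had 9.70 ± 2.42 CPM and Cd68 9.84 ± 0.854, and with both agents Cd68 had 6.57 ± 1.22, Ccr2 2.72 ± 0.123 and Lyz2 4.06 ± 6.78 CPM, with 323 of the Lyz2 counts in TGFβ + RA replicate 3. The 6 dendritic cell markers summed to 92.6 to 155, 216 to 370, 28.7 to 29.6 and 55 to 67.9 CPM in the same order of groups. The integrin Itgax, which activated T cells express too, had 115 ± 34.1, 315 ± 87.0, 18.4 ± 1.66 and 61.8 ± 7.01 CPM (SD, n = 3). Zbtb46, a transcription factor of dendritic cells, was at 10.2 ± 1.20 CPM with TGFβ and at 1.00 ± 0.191, 0.934 ± 0.444 and 1.18 ± 0.153 with neither agent, RA and both, and it rose with TGFβ by 3.35 ± 0.24 (edgeR adjusted p = 1.6e-07, n = 3). Of that list Siglech was at 0 in all libraries, and Clec9a, Xcr1 and Flt3 had at most 6 counts in any. Of 9 fibroblast markers Col3a1, Dcn and Lum were at 0 in all libraries. The 9 summed to 3.62 to 5.11, 7.33 to 15.4, 1.80 to 2.14 and 2.28 to 2.48 CPM in the same order, most of it in RA from Pdgfrb. The part of cells other than CD8 T cells in the Mmp9 and Adamts14 levels was not tested.

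Mcpt1 and Mcpt2 sit in a locus of chymase and granzyme genes, and their neighbours did not share their pattern as a block. The 15 genes of the locus span 321 kb, from Cma1 to Gzmb, and 8 of the 13 others passed the filter. Mcpt9, which lies between Mcpt1 and Mcpt2, had 0 counts in all 6 libraries without TGFβ, 4, 3 and 6 in TGFβ, and 1, 4 and 7 in TGFβ + RA. Mcpt4, a protease of connective tissue mast cells, had 12, 1 and 2 counts in TGFβ and 2, 0 and 0 in TGFβ + RA, so both flanking genes stayed far below Mcpt1 and Mcpt2. Cma1 had 3, 0 and 21 counts in IL-2 + IL-15, 40, 24 and 95 in TGFβ, and 37, 72 and 71 in TGFβ + RA, with no rise from TGFβ to TGFβ + RA in mean CPM beyond the spread (2.11 ± 1.49 and 2.28 ± 0.327, SD, n = 3). The basophil protease Mcpt8 had at most 16 counts in any library but TGFβ + RA replicates 2 and 3, which had 49 and 19.

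Of 6 tested granzymes of the locus 5 rose with RA, and they had no common direction with TGFβ. With RA, 5 of the 8 tested neighbours were higher and 0 lower, against 12.4% and 14.3% of all genes, and all 5 were granzymes, the T cell serine proteases. Gzmc rose from 23.5 ± 18.2 to 391 ± 238 CPM (4.06 ± 0.51, edgeR adjusted p = 6.4e-05) and Gzmf from 0.110 ± 0.0465 to 1.80 ± 0.392 CPM (3.99 ± 0.56), with n = 3 per group. Gzmf had only 2, 4 and 3 counts in IL-2 + IL-15 and passed the filter through groups in which it was high. Its calls against IL-2 + IL-15 are thus a description. With TGFβ, 2 were higher (Cma1 and Gzmf) and 4 lower (Gzmb, Gzmd, Gzme and Gzmg), against 20.7% and 22.4% of all genes, and Gzmc was not called (0.83 ± 0.49, edgeR adjusted p = 0.191, n = 3). Gzmf was no longer called by edgeR when IL-2 + IL-15 replicate 1 (adjusted p = 0.0568), IL-2 + IL-15 replicate 3 (0.0567) or TGFβ replicate 3 (0.0762) was left out. Gzmb, the main granzyme of killer cells, fell from 1403 ± 216 to 604 ± 67.5 CPM (-1.21 ± 0.23, edgeR adjusted p = 0.000857, n = 3). Gzmd, Gzme and Gzmg summed to 201, 67 and 102 counts in IL-2 + IL-15 and to 2 counts each in TGFβ. These 3 passed the filter through the groups without TGFβ, in which they were high. Their lower calls, with TGFβ alone or with both agents, are therefore a description and not a test. With both agents against neither, 4 were higher (Cma1, Mcpt8, Gzmc and Gzmf) and the same 4 lower as with TGFβ, where 30.8% and 32.4% of all genes were called. Cma1 and Mcpt8 passed the filter through libraries with TGFβ. Their calls, also that of Cma1 with TGFβ alone, are therefore a description and not a test. Gzmf was higher by 4.12 ± 0.55 and Gzmc by 1.29 ± 0.49 (edgeR adjusted p = 0.0329 for Gzmc, n = 3), the direction of Mcpt1 and Mcpt2. The call of Gzmc was lost in 5 of the alternatives, with adjusted p of up to 0.123.

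**Figure D4:**
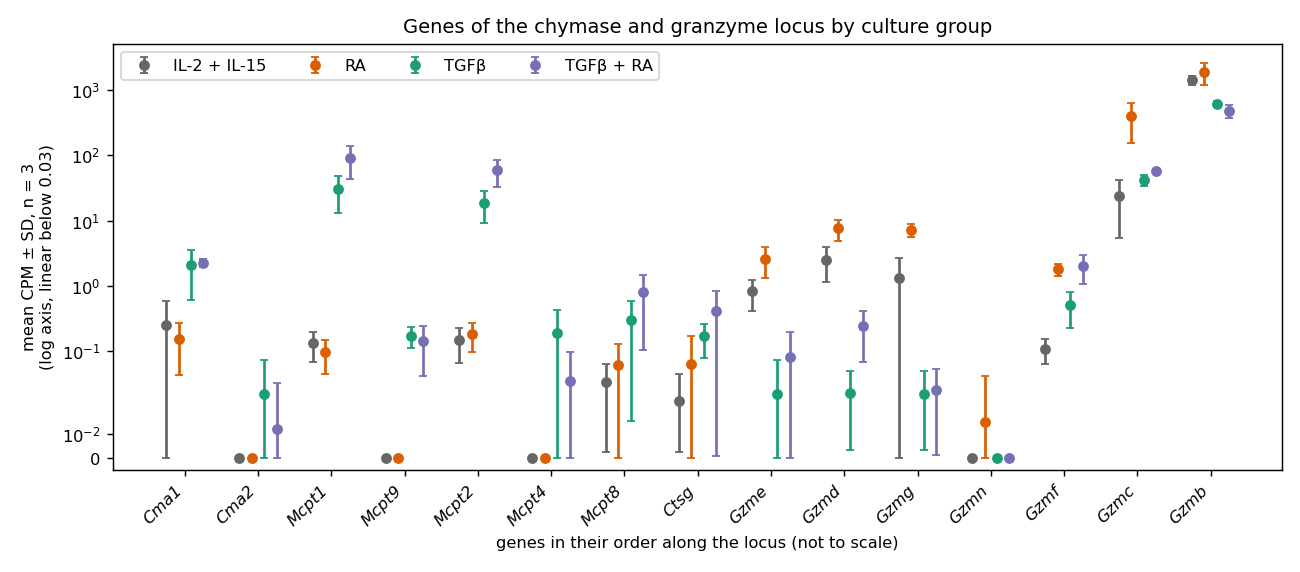
Mean CPM ± SD (n = 3) of the 15 genes in their order along the locus, on a log axis that is linear below 0.03, with lower bars ended at 0. Mcpt1 and Mcpt2 are high in both TGFβ groups, and Gzmd, Gzme and Gzmg are highest in RA and near 0 with TGFβ.

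Around the 4 genes, a protease system of 10 lists and 162 genes was described, in which 92 genes passed the filter. With RA 27 of the 92 were higher and 13 lower, where 12.4% and 14.3% of all genes were called, and the median log2 fold change was 0.04 against 0.00 over all genes. With TGFβ 38 were higher and 26 lower (median 0.19 against 0.00), where 20.7% and 22.4% were called. Among these 38 were Cma1, Gata2, Timp3, Col1a2 and Gzmf, which passed the filter through groups in which they were high and were also called higher with both agents. Col1a2 and Gzmf were also among the 27 higher with RA. Gzmd, Gzme and Gzmg, among the 26 lower with TGFβ, passed the filter through groups without TGFβ. The calls of these genes against such low groups are a description and not a test. With TGFβ + RA against TGFβ 14 were higher and 26 lower (median -0.01 against 0.01), where 20.3% and 22.7% of all genes were called. Adding TGFβ to RA gave 33 higher and 31 lower (median 0.01 against 0.00), where 29.4% and 30.8% of all genes were called. Both agents against neither gave 38 higher and 36 lower (median 0.11 against 0.00), where the shares of all genes were 30.8% and 32.4%. The interaction, the effect of RA with TGFβ minus that without it, was higher for 4 and lower for 20, against 6.95% and 12.3% of all genes.

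Few other members of the Mmp9 and Adamts14 families were expressed. Of 22 other matrix metalloproteinases 5 passed the filter and 6 had 0 counts in every library; of 18 other ADAMTS proteases 2 passed and 4 had 0 counts. With TGFβ Mmp11, Mmp14 and Mmp15 rose and 0 metalloproteinases of the list fell, against 20.7% and 22.4% of all genes. Mmp15, a membrane-anchored metalloproteinase, rose from 0.869 ± 0.351 to 3.62 ± 0.326 CPM (2.03 ± 0.27, edgeR adjusted p = 4.6e-05, n = 3). Mmp11, or stromelysin 3, rose from 4.58 ± 0.205 to 9.76 ± 0.947 CPM (1.09 ± 0.13, edgeR adjusted p = 2.2e-05, n = 3). Adamts6 rose from 20.3 ± 0.459 to 50.6 ± 3.19 CPM with TGFβ (1.32 ± 0.08, edgeR adjusted p = 2.6e-08, n = 3) and Adamts10 from 239 ± 27.9 to 340 ± 28.0 CPM (0.51 ± 0.11, adjusted p = 0.0023). With RA 0 of the 5 metalloproteinases and 0 of the 2 ADAMTS proteases were higher, while Mmp17 (adjusted p = 0.034, n = 3) and Adamts10 (0.0287) were lower by edgeR; the call of Mmp17 was lost in 8 and that of Adamts10 in 5 of the alternatives, with the highest adjusted p at 0.132 and 0.131.

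The membrane-bound ADAM proteases, which shed surface proteins, were mixed. Adam19 rose with RA (0.52 ± 0.08) and with TGFβ (0.89 ± 0.08). Adam8, a leukocyte sheddase, fell with TGFβ from 204 ± 43.1 to 98.3 ± 9.75 CPM and further with both agents to 59.9 ± 8.45 CPM (SD, n = 3). In all 4 of 7 tested ADAM genes were higher and 2 lower with TGFβ (20.7% and 22.4% of all genes), and 0 were higher and 3 lower when RA was added to TGFβ (20.3% and 22.7%).

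Of the 9 genes of the metalloproteinase inhibitor list 6 passed the filter, and with TGFβ 5 rose (Timp2, Timp3, Reck, Spock2 and Cst3) and 0 fell, against 20.7% and 22.4% of all genes, with a median of 1.16 against 0.00. Cst3 is cystatin C, an inhibitor of cysteine proteases and not of metalloproteinases. Timp2, a secreted inhibitor of metalloproteinases, rose from 0.886 ± 0.335 to 16.9 ± 0.920 CPM (4.20 ± 0.18, edgeR adjusted p = 1.5e-09, n = 3) and stayed at 16.8 ± 1.27 CPM with both agents. Timp3, an inhibitor that binds to the matrix, was at 0.0136 ± 0.0235 CPM in IL-2 + IL-15 and 1.20 ± 0.539 CPM in TGFβ, and at 0.0952 ± 0.165 in RA. It thus passed the filter through the groups with TGFβ, and its place among the 5 that rose is a description and not a test. Timp1, the inhibitor that pairs with the Mmp9 proenzyme, was not called for RA (-0.74 ± 0.36, edgeR adjusted p = 0.155, n = 3) or for TGFβ (-0.31 ± 0.34, adjusted p = 0.492), with 1.27 ± 0.466 CPM in IL-2 + IL-15. Reck, a membrane-anchored inhibitor of Mmp9, fell with RA from 38.8 ± 3.28 to 18.6 ± 2.81 CPM (-1.06 ± 0.10, edgeR adjusted p = 4.0e-06, n = 3) and from 48.2 ± 3.52 to 14.2 ± 0.364 CPM when RA was added to TGFβ (-1.76 ± 0.10, adjusted p = 8.8e-09). Its higher level with TGFβ alone (adjusted p = 0.0132 by edgeR, n = 3) missed the threshold when IL-2 + IL-15 replicate 3 (0.0641) or TGFβ replicate 1 (0.0653) was left out.

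Of 11 tested surface and matrix partners of Mmp9, 0 rose and 7 fell with TGFβ, where 20.7% and 22.4% of all genes were called, with a median of -0.48 against 0.00. Cd44, the hyaluronan receptor on which Mmp9 can dock, went from 139 ± 4.60 CPM with neither agent to 115 ± 13.0 with RA, 99.7 ± 5.74 with TGFβ and 28.7 ± 2.30 with both (SD, n = 3). It fell by 1.80 on the log2 scale when RA was added to TGFβ (edgeR adjusted p = 2.0e-09, n = 3). Itgb1, the integrin β1 chain, fell with TGFβ (-1.09 ± 0.09) and again when RA was added to it (-1.10 ± 0.09). Itgb3, the β3 chain, rose with RA from 140 ± 25.5 to 228 ± 59.2 CPM and fell with TGFβ to 49.7 ± 3.99 CPM, the direction of Mmp9. Itgam, the αM chain, fell with both RA (-1.14 ± 0.24) and TGFβ (-2.14 ± 0.25). With RA 4 of the 11 rose and 4 fell, against 12.4% and 14.3% of all genes. Of these RA calls, those of Itgb1, Spp1, Itgb2 and Cd44 were lost in some alternatives. Their edgeR adjusted p reached 0.204, 0.131, 0.0972 and 0.0534 when 1 library was left out.

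**Figure D5:**
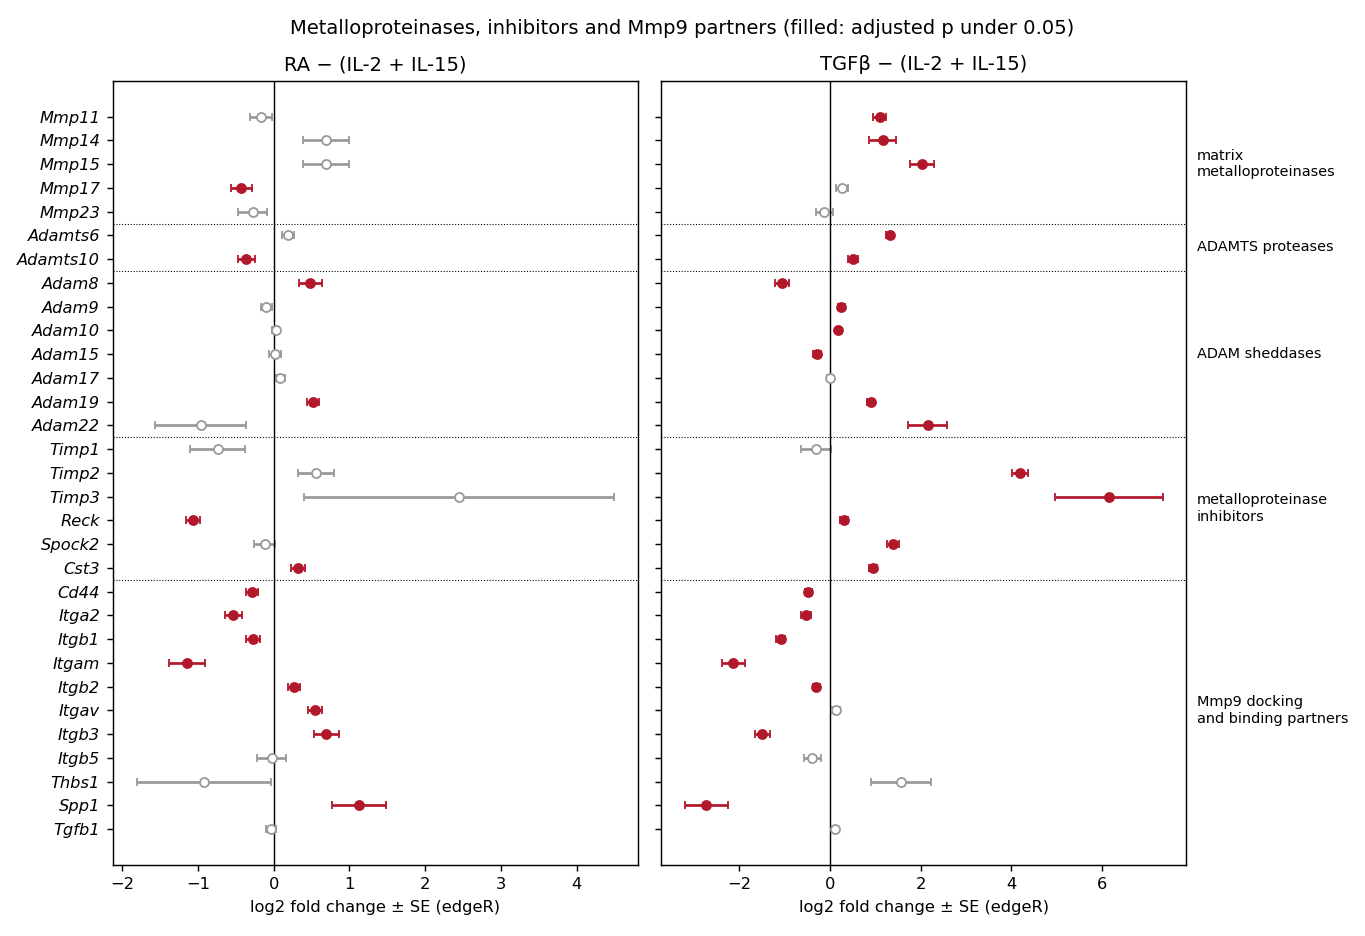
Fitted log2 fold change ± SE (edgeR) of the tested metalloproteinases, ADAM and ADAMTS proteases, inhibitors and Mmp9 partners for RA (left) and TGFβ (right) against IL-2 + IL-15; filled points have an adjusted p under 0.05. With TGFβ 5 of 6 genes of the inhibitor list are filled to the right and 7 of 11 partners to the left. Among the 5 is Timp3, which passed the filter through the groups with TGFβ.

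Substrates of Adamts14 were scarce. Of 25 genes of procollagens and their processing 12 passed the filter, 11 had at most 10 counts over all libraries and Col3a1, a fibrillar procollagen, had 0. With TGFβ 3 were higher and 1 lower (20.7% and 22.4% of all genes), and with RA 3 were higher and 2 lower (12.4% and 14.3%). The shares of the list were thus near or below those of all genes, except for the 3 higher with RA. Col1a2, among the 3 higher in each, had 0, 4 and 1 counts in IL-2 + IL-15. It passed the filter through groups in which it was high, so its calls are a description and not a test. With RA its call was lost when single libraries were left out (edgeR adjusted p of up to 0.142). That of Plod1 with RA was lost in some alternatives too, with adjusted p of up to 0.0883. P4ha2, a subunit of the prolyl hydroxylase that matures procollagen, had the order of Adamts14: 16.4 ± 0.729 CPM with neither agent, 38.3 ± 3.69 with RA, 4.98 ± 0.872 with TGFβ and 11.1 ± 1.43 with both (SD, n = 3). By edgeR's quasi-likelihood test it rose with RA (1.22 ± 0.11, adjusted p = 4.0e-06, n = 3) and fell with TGFβ (-1.72 ± 0.13, adjusted p = 2.7e-07).

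Genes that mature and store granule proteases such as Mcpt1 and Mcpt2 were expressed in every group. Ctsc, the dipeptidyl peptidase that activates chymases and granzymes, rose with RA (0.34 ± 0.05) and with TGFβ (0.53 ± 0.05), and had 205 ± 6.39 CPM with both against 115 ± 6.00 with neither (SD, n = 3). Srgn, the proteoglycan core on which granule proteases are held, rose with RA (0.66 ± 0.07) and TGFβ (0.65 ± 0.07). The intracellular serine protease inhibitors Serpinb9 and Serpinb6b fell with TGFβ by -2.53 ± 0.15 and -3.40 ± 0.22 and rose by 1.51 ± 0.15 and 2.05 ± 0.23 when RA was added to it. The highest adjusted p among these changes was 0.000117 (edgeR, n = 3 per group). Of 12 tested genes in the list 6 were higher and 5 lower with TGFβ, against 20.7% and 22.4% of all genes. Among convertases Furin, which activates several metalloproteinase proenzymes, rose with TGFβ from 95.2 ± 2.14 to 139 ± 7.61 CPM (0.55 ± 0.06, edgeR adjusted p = 8.2e-06, n = 3). Of the 7 tested genes of the plasminogen activator system and convertases 2 were higher and 3 lower with TGFβ, against the same shares.

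Of 22 tested transcription factors and other regulators known to act on protease genes, 11 were higher and 4 lower with TGFβ (20.7% and 22.4% of all genes), and 6 were higher and 3 lower with RA (12.4% and 14.3%). The 11 include Gata2, which passed the filter through the groups with TGFβ, so its place there is not a test. Higher calls were thus 50% of the list with TGFβ and 27.3% with RA. Of the 6 higher with RA, the calls of Elk3, Jund and Nfkb1 were lost in some alternatives. Their edgeR adjusted p reached 0.0892, 0.102 and 0.0838 when 1 library was left out. With TGFβ the call of Jund was lost too, with adjusted p of up to 0.188. Lower calls, at 18.2% and 13.6%, were near the shares of all genes. Jun, an AP-1 subunit that acts on Mmp9, was 29.7 ± 3.07 CPM with neither agent, 70.8 ± 1.87 with RA, 94.1 ± 7.05 with TGFβ and 204 ± 6.02 with both (SD, n = 3), and so was not in the order of Mmp9. Smad3, a transducer of TGFβ signals, rose with RA to 119 ± 5.14 CPM from 84.1 ± 3.00 and fell with TGFβ to 24.8 ± 1.18 CPM. The retinoid receptors Rarg (-1.66 ± 0.06) and Rxra (-3.10 ± 0.24) fell with RA.

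Genes whose pattern was most like each of the 4 were taken by Pearson correlation of log2 CPM over the 12 libraries, leaving out genes whose mean was under 5 CPM. The points share groups and libraries, so r is a description. For Mmp9 these were Mina, Pim3, Itih5, Pgm2l1 and Aifm2 (r = 0.98 each). Itih5, an inter-alpha-trypsin inhibitor heavy chain, had 6.42 ± 0.571, 71.2 ± 13.8, 1.46 ± 0.0682 and 5.93 ± 1.43 CPM with neither agent, RA, TGFβ and both (SD, n = 3). For Adamts14 they were Cst7, Emilin2, Ksr1, Pak6 and Pdxk (r = 0.99 each). Cst7, cystatin F, an inhibitor of the proteases that activate granzymes, had 199 ± 23.9, 251 ± 32.3, 68.2 ± 6.06 and 104 ± 12 CPM in the same order. Emilin2, an extracellular matrix glycoprotein, had 47.7 ± 5.50, 99.3 ± 28.9, 4.97 ± 0.540 and 17.6 ± 2.55 CPM. For Mcpt1 they were Cdc42se2, N4bp1, Rnf149, Crlf2 and Pbxip1, and for Mcpt2 N4bp1, Cdc42se2, Gna12, Pbxip1 and Crlf2 (r = 0.98 to 0.99). Rnf149 had 21 ± 0.920, 18.9 ± 1.16, 72.5 ± 1.61 and 91.7 ± 4.31 CPM in the same order of groups, so it was well expressed without TGFβ, where Mcpt1 was near 0. Among the 4, Mcpt1 and Mcpt2 had r = 0.996, Mmp9 and Adamts14 r = 0.84, and Mmp9 and Mcpt1 r = -0.68.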

How the data were processed

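RNA of 12 CD8 T cell cultures was sequenced from stranded mRNA libraries, per the labels' protocols. STAR, featureCounts and the mouse build GRCm38 are named in the submitters' processing notes; their versions, the annotation release, the strand setting and the handling of multi-mapping reads are not given in the sources used here. Per sample, the authors deposited a table of whole-number counts, not normalized, with 18300206 to 33477037 counts per library. The 4 genes and all gene lists were chosen with earlier results of these data known.

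From the counts, genes were filtered with filterByExpr (minimum count 10; 14009 of 46078 kept), scaled by TMM and fitted with edgeR 4.0.16 in R 4.3.3 in 1 quasi-likelihood model of the 4 groups (12 libraries, 8 residual degrees of freedom). The threshold for a call was 0.05 on glmQLFTest p-values, two-sided and adjusted over all genes by Benjamini-Hochberg. Fold changes use a prior count of 0.125, and SEs were derived from F; for groups of few counts they may be too small. RPKM used exon lengths from GENCODE M21. On simulated counts for RA against IL-2 + IL-15 (13737 genes), 91 of 100 genes changed 2-fold and 97 of 100 changed 4-fold were recovered, and 5 unchanged genes were called. Every simulated gene had the same dispersion between libraries, so these shares do not cover genes that vary more between replicates.

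Genes named in a list are up to 4 called genes with the smallest adjusted p per comparison; others were named after their values were seen or as markers. Alternatives were DESeq2 1.42.0, its size factors, no filter, a prior count of 2, the compared groups alone, Mcpt1 and Mcpt2 summed, the replicate number as a block, and leaving out each library. Promoters came from RefSeq (GRCm38.p6).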

Additional observations from a re-analysis of the deposited data

Results flagged for a closer look

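In 26 genes, 24 of the protease lists and 2 mast cell markers, the effect of RA differed between cultures with and without TGFβ, by the interaction term of edgeR's quasi-likelihood model (adjusted p from 2.4e-06 to 0.044, n = 3 per group), where 6.95% and 12.3% of all genes had a higher and a lower interaction. Each value is the log2 fold change of RA with TGFβ minus that without it. The calls of P4hb, Adam19, Tgfb1 and Fos were lost in 10, 6, 6 and 5 of the alternatives, each time by leaving out 1 library, with adjusted p of up to 0.103, 0.0841, 0.0764 and 0.0608. Among proteases it was -1.20 for Adam8, -0.42 for Adam9, -0.37 for Adam19 and -3.60 for Gzmc. For Gzmc, RA alone gave 391 ± 238 CPM against 23.5 ± 18.2, while TGFβ + RA gave 57.3 ± 3.21 against 41.6 ± 7.85 with TGFβ (SD, n = 3).

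Among protease inhibitors it was 1.56 for Serpinb9, 1.46 for Serpinb6b, -1.09 for Spock2, -0.70 for Cst3 and -0.70 for Reck. Genes of the granule proteoglycan and its synthesis had 1.14 for Chst15, -0.26 for Ext2 and -0.40 for Srgn. Partners of Mmp9 had -1.52 for Cd44, -2.61 for Itgb5, -0.82 for Itgb1, -0.50 for Itgav, -0.42 for Itgb2 and -0.30 for Tgfb1. Itgb5, the integrin β5 chain, had 12 ± 3.19 CPM in IL-2 + IL-15 and 11.7 ± 2.90 in RA, but 9.08 ± 0.779 in TGFβ and 1.47 ± 0.159 in TGFβ + RA (SD, n = 3). Subunits of prolyl hydroxylase had -0.38 for P4ha1 and -0.26 for P4hb. Regulators had 0.77 for Ets2, -0.45 for Rarg, -0.75 for Fosl2 and -1.13 for Fos. The mast cell markers Kit and Il1rl1 had -2.04 and 2.76.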

How the results depend on the processing

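Of 842 recomputed values for the 4 genes and the counts of calls, 838 kept their direction and moved by less than the replicate spread (counts, by less than 1.5-fold), 3 moved further and 1 changed sign. The log2 fold change of Mcpt1 for RA against IL-2 + IL-15 was 0.0626 with Mcpt1 and Mcpt2 summed, in place of -0.37. The number of genes with a higher interaction, 974, ran from 583 (without RA replicate 2) to 1654 (without RA replicate 3) when libraries were left out, and was 627 without IL-2 + IL-15 replicate 2; the cause was not tested. Left-out libraries gave -1.32 to -0.12 for Mmp9 with both agents against neither and 6.17 to 6.93 for Mmp9 with RA. With the replicate number as a block, Mmp9 gave 6.44 for RA and Adamts14 -6.04 for TGFβ, and 1185 genes had a higher interaction. The numbers were not treated as pairs in the main fit, since the labels do not say whether equal numbers share a source. Deviations of same-numbered libraries had r from -0.00 to 0.34, and 10 of 18 pairs were over 0.1. They were not compared with differently numbered libraries, so they do not settle whether a source is shared. Depth limits Mcpt1 and Mcpt2 without TGFβ and Mmp9 with TGFβ, each at 21 or fewer counts a group.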
